A study of Mus musculus with 6 samples.

Results

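PU.1 binding was examined at the loci of 6 genes of antigen presentation, Ciita, H2-Ab1, H2-Aa, H2-Eb1, Cd74 and Cd86, in mouse iBN cells. The members are the PU.1 peaks that overlap 4 windows of build mm9, defined by position. Earlier results of these data were known when the members were chosen. The windows are chr16:10430001-10540000 for Ciita, chr17:34370001-34480000 for H2-Ab1, H2-Aa and H2-Eb1 together, chr18:60920001-61010000 for Cd74 and chr16:36590001-36710000 for Cd86. Peaks of the 4 libraries that shared at least 1 bp were joined into regions, which gave 43 regions in the windows of 82810 in the series. The Ciita window held 14 of them, the class II window 8, the Cd74 window 12 and the Cd86 window 9.

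The cells carry a doxycycline-inducible PU.1 system, are described in the labels as granulocyte-macrophage progenitors and were grown in GM-CSF. Induction was by doxycycline at 1000 ng per ml, lasting 72 hours; uninduced cells got none. PU.1 was precipitated with 1 polyclonal antibody in 2 libraries per condition. The labels give neither a clone nor the cultures behind the replicates, whose spread may therefore be technical, and peak lists hold no expression values against which the cell type could be checked. Read depth is unknown; the induced lists held 68076 and 57336 peaks and the uninduced lists 31960 and 42951, a ratio of means of 1.67 that enters every count below. A missing peak means that none passed the authors' threshold.

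MHC class II molecules present peptides from ingested proteins to CD4+ T cells. Ciita encodes the class II transactivator, which does not bind DNA itself but is recruited by the factors seated on the X and Y boxes of class II promoters and switches the whole gene group on. H2-Aa and H2-Ab1 encode the alpha and beta chains of the I-A molecule and H2-Eb1 the beta chain of I-E. Cd74 encodes the invariant chain, which occupies the peptide groove during transport, and Cd86 encodes a costimulatory ligand of CD28 and CTLA-4 on antigen-presenting cells. PU.1 is an ETS-family factor that recognises a purine-rich GGAA core and is known to take part in Ciita transcription in dendritic cells.

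The promoters of class II chain genes are where the transactivator is recruited, so they are shown here with the letters of the ETS core and the CCAAT box. Of the 6 genes, only H2-Aa and H2-Eb1 are printed, from their entries in RefSeq's GRCm38.p6 promoter table. The 250 bases before each transcription start are given 5′ to 3′ on the gene's strand. The promoters of the other genes are left out, which does not mean that the table lacks them. Capitals mark the letters GGAA (the ETS core) and CCAAT (the core of the Y box) on either strand, so that TTCC and ATTGG are the same motifs read on the other strand. The first lies at chr17:34287824-34288073 on the minus strand and the second at chr17:34305617-34305866 on the plus strand.
H2-Aa: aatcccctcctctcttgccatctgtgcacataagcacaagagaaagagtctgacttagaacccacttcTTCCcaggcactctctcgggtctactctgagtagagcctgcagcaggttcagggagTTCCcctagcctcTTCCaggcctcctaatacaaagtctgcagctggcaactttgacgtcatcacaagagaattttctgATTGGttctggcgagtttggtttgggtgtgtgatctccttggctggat
H2-Eb1: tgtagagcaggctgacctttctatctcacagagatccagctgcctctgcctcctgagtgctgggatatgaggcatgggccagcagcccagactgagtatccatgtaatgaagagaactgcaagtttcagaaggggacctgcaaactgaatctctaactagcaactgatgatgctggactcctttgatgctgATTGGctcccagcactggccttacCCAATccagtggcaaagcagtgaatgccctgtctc
Both promoters held a CCAAT box in the reverse orientation, starting 48 bases before the start of H2-Aa and 59 bases before that of H2-Eb1, and the promoter of H2-Eb1 held another in the forward orientation at 35 bases. The ETS core was found 3 times in the H2-Aa stretch, each time as TTCC, at 182, 126 and 113 bases before the start, and 0 times in the H2-Eb1 stretch. The longer PU.1 core GAGGAA, which contains GGAA, had 0 matches in both. Of the 32851 promoter entries in the table, 93.4% held GGAA, 23.3% GAGGAA and 33.8% CCAAT within the same 250 bases, so the matches are common letters and describe the sequence only. These promoters are in another build than the peaks, and no peak was placed on them.

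Peaks in the windows were more numerous after induction, with the highest ratio around Ciita. All windows together held 40 and 32 peaks in induced replicates 1 and 2 against 12 and 22 in uninduced replicates 1 and 2, or 36.0 ± 5.66 against 17.0 ± 7.07 (mean ± SD, n = 2; exact two-sided permutation p = 0.333). With 2 libraries on each side no smaller p can arise, so no count below could pass a threshold of 0.05. The ratio was 2.12, beside 1.67 for the whole lists, and per 10000 peaks of a list the windows held 5.88 and 5.58 against 3.75 and 5.12 peaks. On this scale the mean was higher after induction in the Ciita and Cd74 windows and lower in the class II and Cd86 windows. The covered length was 41.3 and 30.5 kb in the induced libraries and 10.5 and 20.2 kb in the uninduced libraries. Its ratio of means was 2.34, beside 1.94 for the whole lists. Cut to the 31960 highest scores of each list, the length of the shortest, the windows held 23 and 23 peaks in the induced libraries and 12 and 20 in the uninduced libraries.

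**Figure D1:**
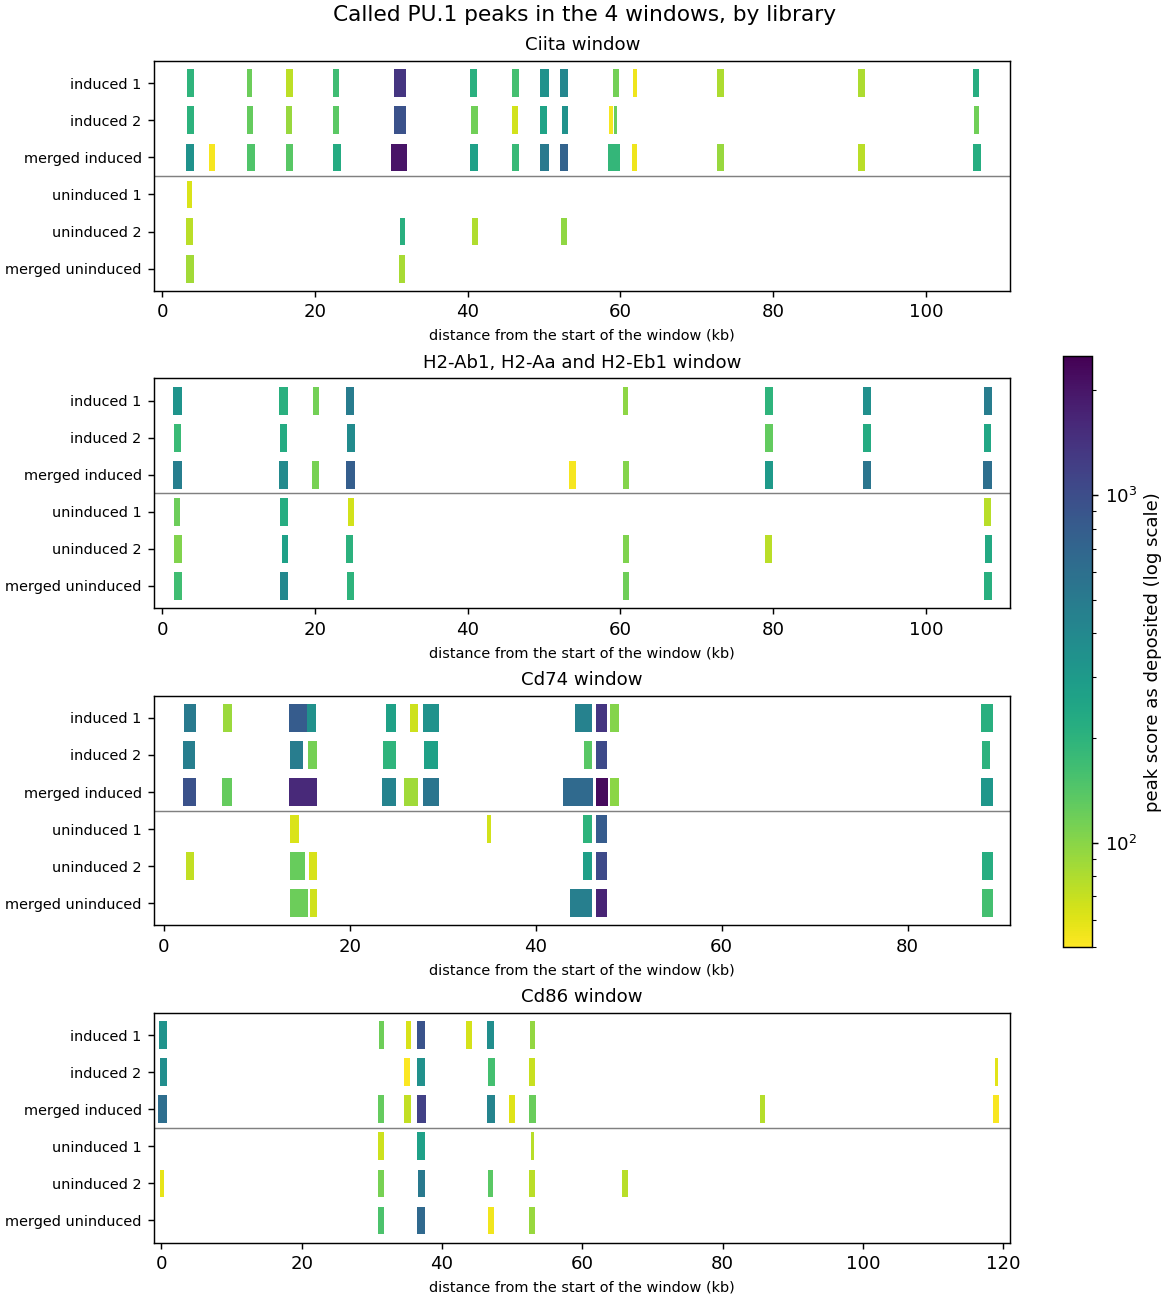
Called peaks in the 4 windows, drawn to scale by distance from the start of each window in kb, with 1 row per library and 1 per list merged by the authors, and coloured by the deposited score on a log scale. The Ciita window holds 14 and 12 peaks in the induced libraries against 1 and 4 in the uninduced ones, whereas the class II window holds 8 and 6 against 4 and 6.

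Regions were classed by the libraries in which they had a peak: shared for all 4, gained for both induced libraries with no uninduced one, lost for the reverse, and mixed for any other pattern. Of the 43 regions, 11 (25.6%) were gained, 10 (23.3%) shared, 0 lost and 22 mixed. Over the whole series 22.2% of regions were gained, 23.4% shared and 3.80% lost, so the shares of gained and shared regions over the windows were near those of all regions. Gained regions numbered 7 of 14 in the Ciita window, 1 of 8 in the class II window, 2 of 12 in the Cd74 window and 1 of 9 in the Cd86 window. Shared regions numbered 1, 4, 3 and 2 in the same order. With lists of equal length the gained shares were 11.1%, 14.3%, 22.2% and 16.7% in that order, beside 12.4% over the series, so the Ciita window then had the lowest share of the 4. In the lists merged by the authors the windows held 43 regions, of which 28 had an induced peak only (47.0% over the series), 15 a peak in both lists (40.8%) and 0 an uninduced peak only (12.2%). The split between windows was not tested, since presence in 2 libraries against 2 cannot pass a threshold.

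Which libraries enter changed the counts over all windows by more than 1.5 times. Without induced replicate 2, 19 regions were gained, and without uninduced replicate 2, 20 were, while without uninduced replicate 1 the shared regions numbered 19. Each class then rests on 3 libraries, and the background rose too, to 39.3% and 38.4% gained and 40.1% shared of all regions. Uninduced replicate 2 matched the induced libraries more often than uninduced replicate 1 did: 30 regions had a peak in both induced libraries (69.8%, beside 61.9% over the series), and 9 of these (30.0%, beside 23.5%) also had one in uninduced replicate 2 and not in uninduced replicate 1. None of the 30 had one in uninduced replicate 1 alone of the uninduced pair, a pattern that was rare over the series too (1434 of 51291 regions).

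**Figure D2:**
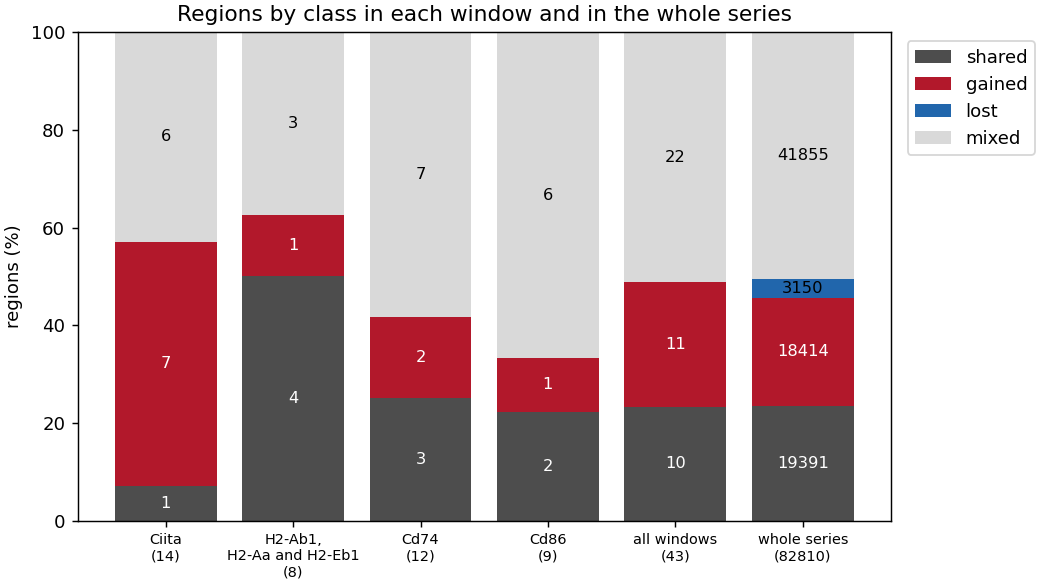
Share of regions in each class (%) for each window, for all windows and for the whole series, with the number of regions in each part of a bar and the total in parentheses. With the full lists the gained share is 50.0% in the Ciita window and 22.2% in the series (11.1% and 12.4% with lists of equal length), and no window holds a lost region.

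Ciita, the master regulator of the class II genes, had the window with the highest ratio of induced to uninduced peak numbers. It held 14 and 12 peaks in the induced libraries and 1 and 4 in the uninduced libraries, or 13.0 ± 1.41 against 2.5 ± 2.12 (mean ± SD, n = 2; exact permutation p = 0.333), a ratio of 5.20. Per 10000 peaks of a list this was 2.06 and 2.09 against 0.313 and 0.931, so both induced libraries stayed above both uninduced ones on this scale. Of its 11 regions with a peak in both induced libraries, 7 (63.6%) had none in either uninduced library, beside 35.9% over the series. This excess was not seen with lists of equal length, where 1 of 9 regions of the window (11.1%) was gained, beside 12.4% over the series. In the other 6 of the 7 regions, at least 1 of the induced peaks scored too low to stay in the shortened lists. The window then held 6 and 7 against 1 and 4 peaks. With scores of at least 100 it held 10 and 9 against 0 and 1 peaks. At that minimum 8 of its regions were gained, while 26.8% of all regions of the series were. Leaving out any 1 library gave 7 to 10 gained regions, while 25.4 to 39.3% of all regions of the series were then gained. With 3 libraries the class has fewer conditions to meet, so this range is no measure of stability.

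The strongest binding near Ciita lay at chr16:10460385-10461915. It scored 1372.36 in induced replicate 1 and 928.51 in induced replicate 2, had no peak in uninduced replicate 1 and scored 211.55 in uninduced replicate 2. The score is the authors' own, on a scale that is not stated, so scores of different lists are given side by side and read by their place within each list: 94.8% and 94.2% of the peaks of the induced lists scored lower, against 70.6% in uninduced replicate 2. The peak was 1529 and 1515 bp wide in the induced libraries and 731 bp in uninduced replicate 2. In the lists merged by the authors it scored 2046.21 for induced and 84.01 for uninduced cells.

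Next in score were neighbours of each other. The region at chr16:10482061-10483194 scored 406.5 and 338.57 in the induced libraries and 95.54 in uninduced replicate 2, with no peak in uninduced replicate 1. The region at chr16:10479407-10480605 scored 346.66 and 256.99 and had no peak in either uninduced library, and it is the gained region of this window that was also gained with lists of equal length. Only 1455 bp separate them. The remaining mixed region with both induced peaks, chr16:10470301-10471320, scored 208.15 and 117.3 in the induced libraries and 79.31 in uninduced replicate 2.

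The other 6 gained regions of the Ciita window were weak to moderate for their lists. From left to right, chr16:10441095-10441839 scored 120.52 and 125.16 in induced replicates 1 and 2. Its neighbour chr16:10446202-10447135 scored 74.34 and 91.31, and chr16:10452365-10453215 scored 167.54 and 136.6. These 3 lie between the shared region and the strongest region of the window. To the right of the latter, chr16:10475779-10476691 scored 160.81 and 65.28, and chr16:10488475-10489866 scored 114.3 and 122.09 and was split into 2 peaks in induced replicate 2. The last, chr16:10536098-10536928, scored 219.18 and 116.22. Over these 6 regions, 15.8 to 58.8% of the peaks of the induced lists scored lower.

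A single region of the Ciita window was bound in all libraries, chr16:10433176-10434164, near the left edge of the window. It scored 195.57 and 201.06 in the induced libraries and 62.83 and 74.4 in the uninduced libraries. A further 3 regions, at chr16:10491632-10492202, chr16:10502624-10503575 and chr16:10521135-10522014, were found in induced replicate 1 alone, with scores between 55.14 and 81.08, and each of the 3 was also in the merged induced list. In RefSeq's GRCm38.p6 annotation Ciita lies between the protein-coding genes Tvp23a and Dexi. No annotation of mm9 was used here, so a peak is tied to the window and not to one of these genes or to an exon or intron.

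**Figure D3:**
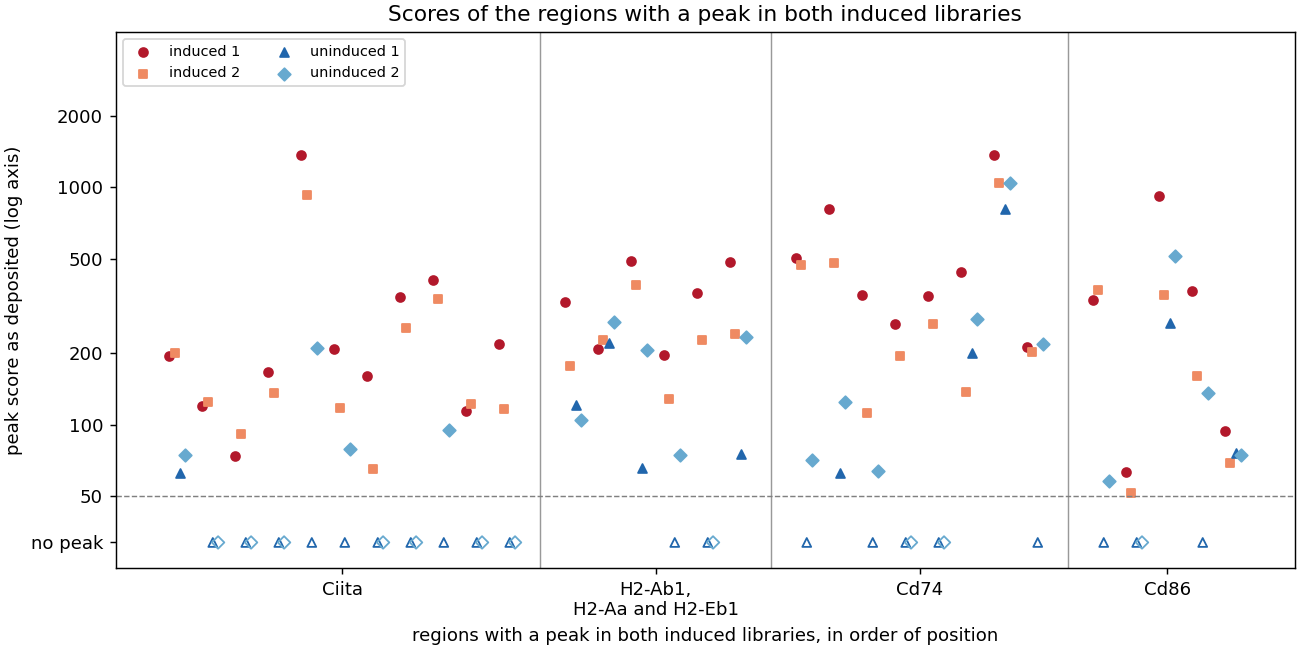
Deposited scores (log axis) of the 30 regions with a peak in both induced libraries, in order of position within each window, with 1 marker shape per library and open markers where no peak was called; the dashed line is the lowest score of the lists, 50. In the Ciita window uninduced replicate 1 has a peak at 1 of 11 regions, and in the class II window at 4 of 6. Over the series, 19391 of the 51291 such regions are shared, and a further 1434 have a peak in uninduced replicate 1 but not in uninduced replicate 2.

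The class II window, with the genes of the I-A chains and the I-E beta chain, had peaks in all 4 libraries at 4 of its 8 regions. It held 8 and 6 peaks in the induced libraries and 4 and 6 in the uninduced libraries, so the groups met at 6 (7 ± 1.41 against 5 ± 1.41, mean ± SD, n = 2; exact permutation p = 0.667). Per 10000 peaks of a list the order was the reverse, with 1.18 and 1.05 in the induced libraries and 1.25 and 1.4 in the uninduced libraries. Of its 6 regions with a peak in both induced libraries, 4 were shared, beside 19391 of 51291 over the series. Those 4 remained shared with lists of equal length.

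The highest induced score of the window was at chr17:34394088-34395235, with 488.4 and 386.88 in the induced libraries and 65.67 and 206.31 in the uninduced libraries. Close behind, chr17:34477530-34478600 scored 487.17 and 242.11 in the induced libraries and 75.59 and 234.16 in the uninduced libraries. In uninduced replicate 1 these scores were above 21.8% and 31.8% of the peaks of its list, and in uninduced replicate 2 above 70.0% and 73.5%. The region at chr17:34371486-34372639 scored 328.68 and 177.62 against 120.81 and 105.3. The fourth shared region, chr17:34385355-34386522, scored 208.52 and 227.78 in the induced libraries and 221.4 and 271.51 in the uninduced libraries. That region was the strongest of this window in both uninduced libraries and in the merged uninduced list, where it scored 399.86 beside 387.99 in the merged induced list.

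The gained region of the class II window was chr17:34461702-34462779. It scored 358.43 and 227.84 in the induced libraries, which placed it above 71.8% and 65.6% of their peaks, and it had no peak in either uninduced library or in the merged uninduced list. It was gained with lists of equal length too. The mixed region chr17:34448948-34449975 scored 197.69 and 128.48 in the induced libraries and 74.74 in uninduced replicate 2. Beyond these, chr17:34430364-34431162 had peaks of 96.47 in induced replicate 1 and 105.84 in uninduced replicate 2, and chr17:34389707-34390525 had a peak of 115.19 in induced replicate 1 alone. In the GRCm38.p6 annotation the order of protein-coding genes is H2-Ob, H2-Ab1, H2-Aa, H2-Eb1 and H2-Eb2.

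Around Cd74, the invariant chain gene, 1 region was strong in every library. Of the 12 regions of the window 2 were gained (16.7%, beside 22.2% over the series). The window held 11 and 8 peaks in the induced libraries and 4 and 6 in the uninduced libraries (9.50 ± 2.12 against 5 ± 1.41, mean ± SD, n = 2; exact permutation p = 0.333). Per 10000 peaks of a list these were 1.62 and 1.4 against 1.25 and 1.4, so the groups met. The strong region, chr18:60966512-60967707, scored 1366.2 and 1045.28 in the induced libraries and 813.96 and 1045.51 in the uninduced libraries. It was above 93.9 to 97.5% of the peaks of each of the 4 lists, and no other region of the 43 was this high in every library.

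Just left of it, the shared region chr18:60964177-60966102 scored 439.44 and 137.83 in the induced libraries and 200.72 and 278.92 in the uninduced libraries. Its scores were above 76.6% and 49.4% of the peaks of the induced lists and above 71.4% and 78.1% of those of the uninduced lists. The third shared region, chr18:60933521-60935395, scored 811.55 and 481.39 in the induced libraries and 62.82 and 124.85 in the uninduced ones. It abuts the mixed region chr18:60935441-60936520, which scored 351.21 and 112.64 in the induced libraries and 63.8 in uninduced replicate 2, with 45 bp between them, and the merged induced list has 1 peak over both.

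Of the regions near Cd74, 2 were gained. The wider, chr18:60947904-60949585, scored 348.12 and 267.29 in the induced libraries, and chr18:60943620-60944993 scored 267.03 and 194.85. Both were gained with lists of equal length as well. Mixed regions with both induced peaks were chr18:60922101-60923459, with 503.9 and 472.72 in the induced libraries and 71.51 in uninduced replicate 2, and chr18:61007901-61009184, with 213.19 and 202.06 and 218.92. Another 3 regions were found in induced replicate 1 alone, with scores of 67.29 to 102.76, and 1 in uninduced replicate 1 alone, with a score of 65.76. In GRCm38.p6 the neighbouring protein-coding genes of Cd74 are Rps14 and Tcof1.

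At Cd86, the costimulatory ligand gene, the groups met at 6 peaks, with 7 and 6 peaks in the induced libraries and 3 and 6 in the uninduced libraries (6.50 ± 0.707 against 4.5 ± 2.12, mean ± SD, n = 2; exact permutation p = 0.667). The shared region chr16:36626489-36627634 scored 922.68 and 352.94 in the induced libraries and 269.59 and 515.41 in the uninduced libraries. It was the strongest of the window in every library but induced replicate 2, where chr16:36589704-36590780 scored 369.85. Among all shared regions of the series chr16:36626489-36627634 stood at percentiles 72.0 and 53.6 in the induced libraries. Its percentiles were 65.3 and 79.0 in the uninduced ones, so the groups overlapped in rank. The other shared region, chr16:36642410-36643324, was weak throughout, with 93.87 and 69.0 in the induced libraries and 76.51 and 74.85 in the uninduced libraries. With lists of equal length its induced peaks dropped out. It was then 1 of 2 regions called lost among the 6 of this window, beside 8.53% over the series.

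The gained region of the Cd86 window, chr16:36624598-36625569, scored 63.34 and 51.49, close to the minimum of 50, and was not in the lists of equal length. Stronger in the induced libraries was chr16:36589704-36590780, which crosses the left edge of the window. It scored 336.38 and 369.85 in the induced libraries and 58.2 in uninduced replicate 2, and had no peak in uninduced replicate 1. With lists of equal length its peak in uninduced replicate 2 dropped out, and the region was then called gained. The region chr16:36636420-36637566 scored 365.1 and 160.88 in the induced libraries and 136.23 in uninduced replicate 2. One region had peaks in both uninduced libraries and a single induced one: chr16:36620903-36621801, with 118.28 in induced replicate 1, 66.89 in uninduced replicate 1 and 111.32 in uninduced replicate 2. It was the other region called lost with lists of equal length. The last 3 regions had a peak in 1 library each, induced replicate 1 (64.15), induced replicate 2 (60.03) and uninduced replicate 2 (76.3). Casr and Ildr1 neighbour Cd86 among protein-coding genes in GRCm38.p6.

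The 10 shared regions allowed binding to be compared by rank, because the same 19391 shared regions of the series can be ordered by score in every library. The windows' shared regions had a median percentile of 47.6 and 39.2 in the induced libraries and 27.0 and 46.1 in the uninduced libraries, which overlap (difference of means 6.89 points; exact permutation p = 0.667). The difference was negative under 3 alternatives: -11.3 points with scores of at least 100, -5.37 with lists of equal length and -4.59 with windows shortened by 20 kb at each end. It ranged from 3.24 to 17.0 when 1 library was left out, with 16.5 points without induced replicate 2 and 17.0 without uninduced replicate 2, while without induced replicate 1 it was 3.24.

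The order of the conditions differed between single regions. Both induced percentiles lay above both uninduced ones in 3 of the 10 regions, beside 30.6% of all shared regions, and below them in 4, beside 30.8%. The widest gap upward was at chr18:60933521-60935395 in the Cd74 window, with 67.6 and 64.9 in the induced libraries against 9.17 and 23.7 in the uninduced libraries. The shared region of the Ciita window stood at 20.3 and 34.1 against 9.17 and 7.83, and chr17:34394088-34395235 at 49.6 and 56.9 against 10.8 and 43.4. Downward, chr17:34385355-34386522 stood at 22.0 and 38.1 against 59.1 and 55.2, and chr18:60964177-60966102 at 45.8 and 22.4 against 56.0 and 56.3. The strong region of the Cd74 window stood at 84.4 and 88.4 against 90.0 and 94.4, so it was near the top in all 4 libraries.

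**Figure D4:**
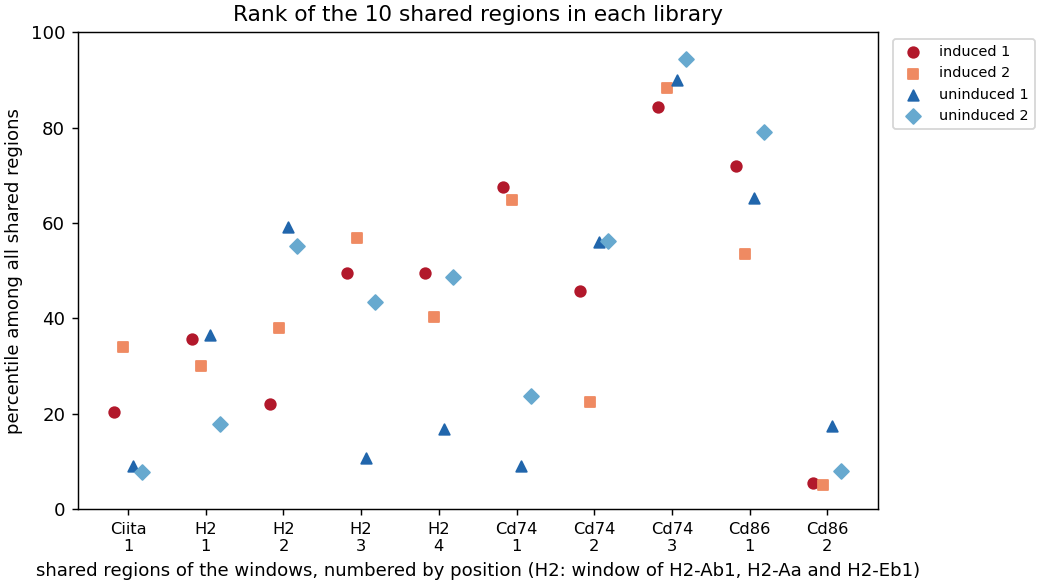
Percentile of the 10 shared regions of the windows among all 19391 shared regions, in each library, with regions numbered by position within a window. The first shared region of the Cd74 window is at 67.6 and 64.9 in the induced libraries and 9.17 and 23.7 in the uninduced libraries, and the second of the class II window shows the opposite order.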

How the data were processed

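PU.1 ChIP-seq peak lists of 2 induced and 2 uninduced libraries and 1 merged list per condition were used; the series also has 2 input libraries, which were left out. Trim Galore, Bowtie, MACS 1.4.1 and build mm9 are named, per the submitters' processing notes. Each deposited list gives positions and 1 score per peak. The score is the authors' value, at least 50 in every list, on a scale for which no source was at hand. Scores of a region are printed for each library, and libraries are compared only by place within a list or by rank over the same shared regions. The role of the input in peak calling and the way of merging replicates were also not stated.

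Regions were built and classed with Python 3.11.15, NumPy 2.4.6 and SciPy 1.17.1, and figures drawn with matplotlib 3.10.9; the code was tested on simulated lists. Positions count from 1, and peaks that overlap a window count whole. Means of the conditions were set against each other by exact permutation of the libraries, two-sided. Every region with peaks in all 4 libraries, every gained or lost region and every mixed region with both induced peaks is named; the other mixed regions named were added after their values were seen. The members and lists were chosen with earlier results of these data known. A planned count of other antigen presentation genes needs an mm9 annotation and was not run. The alternatives tried were matching by 50% of both intervals, a score minimum of 100, equal lists of the 31960 best peaks, windows changed by 20 kb at each end, the authors' merged lists, each library left out in turn and a replicate block; peaks per 10000 of a list were added after seeing the data.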

Additional observations from a re-analysis of the deposited data

How the results depend on the processing

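The excess of peaks in the induced libraries (19 peaks and 20.5 kb over all windows) kept its direction under every alternative that could change it. The added scaling per 10000 peaks was among these (1.29). The excess was not tested against chance beyond the exact tests given. This excess lay between 14 and 24 peaks and between 15.1 and 25.9 kb when 1 library was left out. With lists of equal length it was 7 peaks and 10.9 kb. Not every window shared the direction of the scaled excess. Mean peaks per 10000 were 2.07 induced against 0.622 uninduced in the Ciita window and 1.51 against 1.32 in the Cd74 window. They were 1.11 against 1.32 in the class II window and 1.04 against 1.17 in the Cd86 window. Gained regions numbered 11 of 43 as reported (series 22.2%) and 5 of 31 with lists of equal length (series 12.4%). With scores of at least 100 they numbered 15 of 31 (series 26.8%). They numbered 7 of 27 with windows shortened by 20 kb at each end (series 22.2%). The authors' merged lists gave 28 of 43 (series 47.0%). When 1 library was left out they numbered 11 to 20 (series 25.4 to 39.3%). Shared regions numbered 10 of 43 as reported (series 23.4%) and 5 of 31 with scores of at least 100 (series 22.7%). They numbered 5 of 27 with the shortened windows (series 23.4%) and 10 to 19 when 1 library was left out (series 25.7 to 40.1%). Lost regions, 0 as reported, numbered 2 with lists of equal length and 0 to 1 when 1 library was left out. The median rank difference of shared regions was 6.89 points as reported, -11.3 with scores of at least 100, -5.37 with lists of equal length and -4.59 with the shortened windows, and 3.24 to 17.0 when 1 library was left out. Shorter lists and windows hold fewer regions by construction. With 1 library left out each class has fewer conditions to meet, so its count tends to rise by definition. The causes of the other changes were not tested. In the Ciita window gained regions numbered 7 of 14 as reported (50.0%, series 22.2%) and 1 of 9 with lists of equal length (11.1%, series 12.4%). They numbered 8 with scores of at least 100 (series 26.8%). The counts were 13 of 15 with the merged lists (86.7%, series 47.0%) and 4 with the shortened window (series 22.2%).

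With the replicate number as a block only the test changes, since the differences of 19 peaks, 20.5 kb and 6.89 points are the same by construction. The exact sign-flip p-values were 0.5, 0.5 and 1, and 0.5 is the smallest that 2 pairs allow. Over the 19391 shared regions the deviations of same-numbered libraries from their group means had a correlation of -0.0254, so the numbers were not taken to pair the libraries. The depth behind the lists is unknown, so a missing peak sets no upper limit on binding.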

Other observations

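The merged lists of the authors gave the Ciita window the highest share of regions with an induced peak only. Of the regions formed from the merged induced and merged uninduced lists, 13 of 15 in the Ciita window, 4 of 9 in the class II window, 6 of 10 in the Cd74 window and 5 of 9 in the Cd86 window had an induced peak only. The merged induced list held 4 peaks of the windows found in neither replicate, with scores of 52.98 at chr16:10436103-10436975, 52.52 at chr17:34423239-34424185, 60.87 at chr16:36639576-36640370 and 76.94 at chr16:36675363-36676063. The merged uninduced list lacked 6 of the 22 peaks of uninduced replicate 2 and 1 of the 12 of uninduced replicate 1. Among the 6 were the peaks of 79.31 and 95.54 in the Ciita window, so the merged list shows less uninduced binding there than uninduced replicate 2 does.

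Bound regions lay densely in the Ciita and Cd74 windows, a measure chosen after their values were seen. Per 100 kb, the Ciita window held 12.7 regions and 6.36 gained regions, the class II window 7.27 and 0.909, the Cd74 window 13.3 and 2.22, and the Cd86 window 7.50 and 0.833. Over the 18896 tiles of 100 kb with at least 1 region, the medians were 3 regions and 1 gained region. The windows are 90 to 120 kb long, so their counts were scaled to the length of a tile. As many regions or more were held by 4.65% of the tiles for the Ciita window, 3.31% for the Cd74 window and 18.7% for each of the other two. As many gained regions or more were held by 0.381% of the tiles for the Ciita window, 12.0% for the Cd74 window and 51.0% for each of the other two. These counts use the full lists, and 1 of the 7 gained regions of the Ciita window was gained with lists of equal length. The median gap between neighbouring regions with both induced peaks was 5.25 kb in the Ciita window, 12.7 kb in the class II window, 7.10 kb in the Cd74 window and 6.81 kb in the Cd86 window. Just outside the Ciita window lay a gained region 11.4 kb to the left (177.38 and 77.69 in the induced libraries) and a shared region 4.82 kb to the right (713.7 and 444.23 in the induced, 112.48 and 215.15 in the uninduced libraries).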
